A study of Mus musculus with 15 samples.

Results

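The 10 genes Hdac1 to Hdac10 encode the histone deacetylases of classes I and II, and their expression was followed by bulk RNA-seq in 4T1 cells, a mouse mammary carcinoma line used as a model of triple-negative breast cancer. The members were taken by symbol from a count table of 40402 genes. All 10 were in the table and all 10 passed the filter on low counts, a library-scaled level (CPM) of 1 or more in at least 1 library, which kept 17647 genes. The members were selected on the counts of Hdac9, lower in every treated library than in untreated cells, so the differences between treated and untreated cells are given as a description, with no test.

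The 5 conditions were untreated 4T1 cells, cells given an extract of blueberry (BLU) or of blackberry (BLA), and cells given gold nanoparticles prepared from the blueberry (BLU-A) or the blackberry (BLA-A) extract. The cells share 1 line and 1 medium, RPMI1640 with fetal bovine serum, and no animal tissue was sequenced. The table holds 3 columns per condition, with total counts from 25611976 to 26957141 per column. The study's sequencing report lists the read files of a condition as subset reads of 1 sample. The paper, in contrast, gives 3 biological replicates wherever no number is specified. The columns are taken here as read subsets of 1 library. They differed by less than the sampling noise, with a chi-square per degree of freedom from 0.0951 to 0.475. The 3 columns of a condition were therefore averaged and counted as 1 library, and no difference from untreated cells has a replicate check. Each of the 15 columns carries its own batch label, which is at odds with 1 library per condition. Batch and condition cannot be told apart.

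Histone deacetylases remove acetyl groups from lysines of histones and other proteins, which generally compacts chromatin and lowers transcription. Class I enzymes (Hdac1, Hdac2, Hdac3 and Hdac8) are mostly nuclear, and all but Hdac8 work as catalytic subunits of corepressor complexes. Class IIa proteins (Hdac4, Hdac5, Hdac7 and Hdac9) have weak catalytic activity of their own, bind MEF2 transcription factors and leave the nucleus when kinases phosphorylate them. Class IIb (Hdac6 and Hdac10) is mainly cytoplasmic, with Hdac6 acting on tubulin and Hdac10 on polyamines. Hdac11, the sole class IV enzyme, is not a member here and was followed beside them.

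Hdac9 is the longest of these genes. It spans 870.0 kb of the minus strand, at chr12:34097579-34967094 of GRCm39 (GENCODE annotation), of which 1.80% is exon. Reads were counted over whole genes, introns included, so its value does not separate its transcripts. RefSeq gives Hdac9 2 promoters whose start sites lie 388.0 kb apart, and Hdac8 1. The 250 bases before each start are shown because Hdac9 and Hdac8 are the members that passed the fold threshold in any treatment. Capitals mark the letters TATAAA on either strand.
Hdac9 promoter at the distal start, chr12:34967095-34967344, minus strand: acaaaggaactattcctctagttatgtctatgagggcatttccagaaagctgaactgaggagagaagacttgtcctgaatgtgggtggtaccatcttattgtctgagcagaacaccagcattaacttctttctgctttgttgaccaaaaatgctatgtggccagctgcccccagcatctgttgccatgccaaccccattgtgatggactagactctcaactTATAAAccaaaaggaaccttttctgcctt
Hdac9 promoter at the inner start, chr12:34578889-34579138, minus strand: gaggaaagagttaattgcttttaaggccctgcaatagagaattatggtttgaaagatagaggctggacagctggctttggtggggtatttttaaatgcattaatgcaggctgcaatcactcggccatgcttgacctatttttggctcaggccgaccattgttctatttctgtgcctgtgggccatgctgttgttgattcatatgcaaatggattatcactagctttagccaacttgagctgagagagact
Hdac8 promoter, chrX:101548765-101549014, minus strand: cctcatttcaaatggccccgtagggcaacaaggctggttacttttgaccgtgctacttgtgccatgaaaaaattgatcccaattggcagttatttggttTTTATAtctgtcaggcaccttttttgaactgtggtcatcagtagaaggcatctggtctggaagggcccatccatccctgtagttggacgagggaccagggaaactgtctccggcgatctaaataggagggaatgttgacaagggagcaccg

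The distal Hdac9 promoter holds TATAAA starting 29 bases before the start site, letters that 12.4% of 32851 RefSeq promoter windows of this length hold on at least 1 strand. It has no CG dinucleotide, as do 7.87% of the windows. The inner Hdac9 promoter has 2 CG dinucleotides and no TATAAA. The Hdac8 window has 6 CG dinucleotides, the median of all windows, and holds TATAAA on the opposite strand 151 bases before the start. None of the 3 windows holds the letters GGGCGG (GC box, in 32.7% of windows), CACGTG (E-box, in 6.02%) or the MEF2 site (in 2.92%) on either strand, which says only that these letters are not in these windows.

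Hdac9 was lower in all 4 treated libraries than in untreated cells. Its 3 columns held 258, 257 and 258 counts in untreated cells. In BLU they held 108, 105 and 107 counts, and in BLA 60, 55 and 61. In BLU-A they held 84, 81 and 81 counts, and in BLA-A 64, 65 and 54. The highest treated column belonged to BLU. Hdac9 was picked for being lower in the treated libraries, and the columns of a condition are read subsets, so their separation adds no support. In TMM-scaled CPM the level was 9.70 in untreated cells, 3.89 in BLU, 3.10 in BLU-A, 2.64 in BLA-A and 2.17 in BLA.

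Relative to untreated cells, Hdac9 stood at 22.4% in BLA (95% interval 16.6 to 29.8%) and at 40.1% in BLU (31.7 to 50.4%). It stood at 27.2% in BLA-A (20.2 to 36.1%) and at 32.0% in BLU-A (24.6 to 41.1%). The log2 fold changes, on CPM plus 0.5, were -1.22, -1.93, -1.50 and -1.70 in BLU, BLA, BLU-A and BLA-A. These intervals, and all others on single libraries, cover counting error only. They take the mean of the 3 columns as the count, so they hold for the depth of 1 column. With a pseudocount of 2 in place of 0.5, the value in BLU was -0.99 and no longer passed a log2 fold change of 1. In order of level, each treated library differed from the next by less than counting error, with ratios from 1.18 to 1.25, whereas untreated cells exceeded BLU by 2.49 (1.98 to 3.15). Farther apart in that order, BLA was at 0.558 of BLU (0.399 to 0.774) and at 0.700 of BLU-A (0.492 to 0.990), and BLU exceeded BLA-A by 1.48 (1.07 to 2.06).

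**Figure D1:**
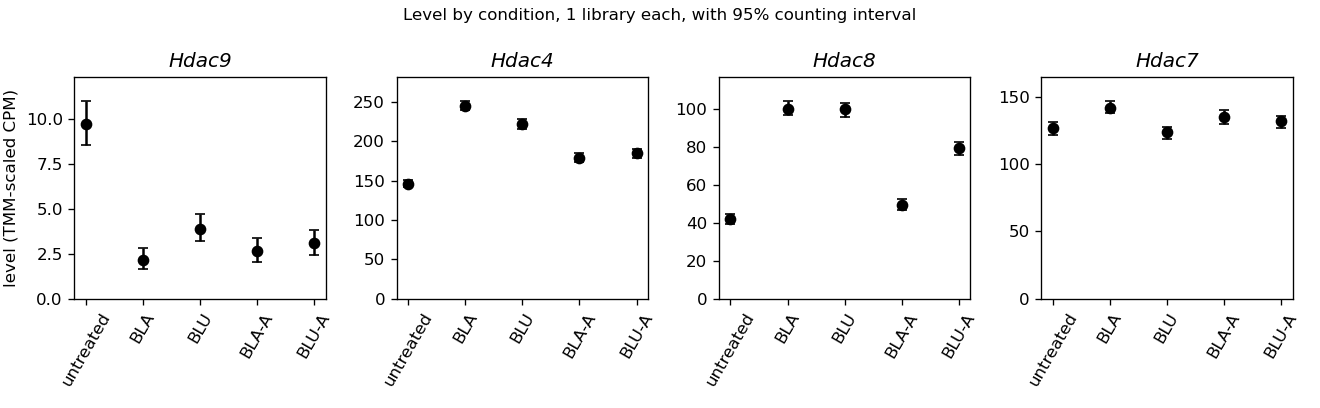
Level of Hdac9, Hdac4, Hdac8 and Hdac7 in TMM-scaled CPM (y axis, from 0) in the 5 conditions (x axis), 1 library each. Points are the mean of the 3 columns and bars the 95% counting interval. Hdac9 lies at 9.70 in untreated cells and at 2.17 to 3.89 in treated cells, Hdac4 and Hdac8 are lowest in untreated cells, and Hdac7 stays between 124.0 and 142.0.

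Counting genes past a log2 fold change of 1, Hdac9 was the only member lower in each treatment. Over all genes, 4.64% were lower in BLU, 8.55% in BLA, 4.51% in BLU-A and 12.4% in BLA-A. Lower in all 4 treatments were 238 of 17647 genes, or 1.35%, among them Hdac9. Nothing is read from these shares, since they rest on the contrast by which Hdac9 was picked. Higher past the threshold were Hdac8 in BLA and BLU, against 7.93% and 5.66% of all genes, and no member in BLA-A or BLU-A, against 8.54% and 3.35%. No member was higher past the threshold in all 4 treatments, as were 0.306% of genes. The nearest values inside the threshold were -1.22 for Hdac9 and 1.24 for Hdac8, both in BLU. The nearest outside were 0.91 for Hdac8 in BLU-A, -0.83 for Hdac10 in BLA and 0.81 for Hdac5 in BLA-A.

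The other class IIa genes did not follow Hdac9. Hdac4, which spans 267.0 kb at chr1:91855937-92123421, was higher in every treated library. Its level was 146.0 CPM in the untreated library, 222.0 in BLU, 245.0 in BLA, 185.0 in BLU-A and 179.0 in BLA-A. Both extract libraries lay above both nanoparticle libraries, and the nanoparticle libraries differed by less than counting error (ratio 1.03, 0.986 to 1.07). The log2 fold changes were 0.60 in BLU, 0.74 in BLA, 0.34 in BLU-A and 0.30 in BLA-A. Hdac5 was at 51.1 CPM in the untreated library and at 49.1, 56.8, 64.1 and 89.6 CPM in BLU, BLA, BLU-A and BLA-A. BLA-A was the high library, with 1.40 times the level of BLU-A (1.31 to 1.49), and BLU lay within counting error of untreated cells. Hdac7 was the steadiest member, at 127.0 CPM in the untreated library and from 124.0 to 142.0 CPM in treated cells, with log2 fold changes from -0.03 to 0.17.

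Within class IIa the composition of counts shifted, a measure that does not depend on the scaling of libraries. Hdac9 made up 2.91% of the class IIa counts in untreated cells (Wilson 95% interval 2.58 to 3.28%). Its share was 0.976% in BLU (0.808 to 1.18%), 0.486% in BLA (0.377 to 0.627%), 0.809% in BLU-A (0.652 to 1.00%) and 0.648% in BLA-A (0.505 to 0.832%). These intervals cover counting error of 1 library each. Hdac9 was picked on this contrast, so the gap between its treated and untreated shares is not a test. Hdac4 went from 43.8% of the class IIa counts to 54.9% in BLA and 55.7% in BLU, and stood at 44.2% in BLA-A and 48.1% in BLU-A. Hdac7 went from 37.9% to between 31.0 and 34.3%. The summed level of class IIa was 333.0 CPM in the untreated library and from 383.0 to 446.0 CPM in treated cells. Hdac4 held the largest share of this sum in each library. The class median log2 fold change was -0.04 in BLU, 0.16 in BLA, 0.19 in BLU-A and 0.19 in BLA-A. In BLU, Hdac4 was the only class IIa gene above untreated cells.

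**Figure D2:**
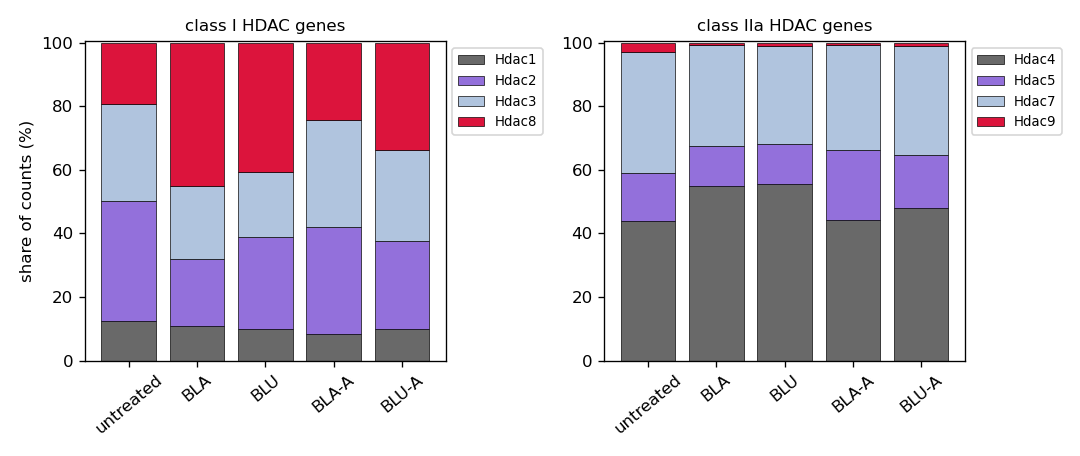
Share of counts (y axis, %) that each gene took of the class I genes (left) and the class IIa genes (right) in the 5 conditions (x axis), 1 library each. Hdac9, the thin top segment on the right, goes from 2.91% to between 0.486 and 0.976%, and Hdac8, the top segment on the left, from 19.3% to between 24.4 and 45.0%.

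Among class I genes, Hdac8 was higher and Hdac1 and Hdac2 lower in every treated library. Hdac8, which spans 221.0 kb at chrX:101328244-101549026, was at 41.8 CPM in the untreated library, 99.5 in BLU, 100.0 in BLA, 79.0 in BLU-A and 49.3 in BLA-A. BLA and BLU differed by less than counting error (ratio 1.01, 0.956 to 1.06), BLU-A came next, and BLA-A was nearest to untreated cells, above them by 1.18 (1.08 to 1.28). The fold over untreated cells was 2.38 in BLU (2.22 to 2.55), 2.40 in BLA (2.24 to 2.58) and 1.89 in BLU-A (1.75 to 2.03). The Hdac8 value is uncertain as a measure of the deacetylase transcript. RefSeq places Gm32262, a long noncoding RNA gene of 209.0 kb, over 94.7% of the Hdac8 span. Gm32262 had 1019 counts in untreated cells, 2567 in BLU, 2525 in BLA, 2028 in BLU-A and 1119 in BLA-A, where Hdac8 had 1113, 2738, 2730, 2089 and 1141. Its counts thus came to between 91.6 and 98.1% of those of Hdac8 in each library. By distance between profiles, as used below for Hdac9, Gm32262 was the nearest kept gene to Hdac8 (0.0861). The study's report states counting by strand with the overlap mode union, and the strand of Gm32262 was not examined. How reads over both genes were assigned was not tested. The same limit holds for every Hdac8 value here, with the class I shares and sums.

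Hdac2 was at 81.9 CPM in the untreated library and at 70.9, 47.1, 64.1 and 67.9 CPM in BLU, BLA, BLU-A and BLA-A. BLA was the low library, at 57.5% of untreated cells (53.7 to 61.7%), and the other libraries stood at 78.2 to 86.5%. Hdac1, the close paralog of Hdac2, was at 27.0 CPM in the untreated library, 24.0 in BLU, 24.2 in BLA, 23.7 in BLU-A and 17.1 in BLA-A. Here BLA-A was the low library, at 63.4% (55.9 to 71.8%). Hdac3, the catalytic subunit of the NCoR and SMRT complexes, split by formulation. It was at 66.1 CPM in the untreated library, 49.6 in BLU and 51.2 in BLA, and at 67.5 in BLU-A and 67.7 in BLA-A. The nanoparticle libraries lay within counting error of untreated cells, and both extract libraries lay below. With scaling by total counts the Hdac3 value in BLA-A turned from 0.04 to -0.16, and that of Hdac7 in BLA-A from 0.09 to -0.10. The summed class I level was 217.0 CPM in the untreated library and between 202.0 and 244.0 CPM in treated cells.

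Of the class IIb genes, Hdac6 was at 48.8 CPM in the untreated library, 38.7 in BLU, 37.1 in BLA, 50.6 in BLU-A and 38.5 in BLA-A. BLU, BLA and BLA-A lay below untreated cells, within counting error of each other, and BLU-A lay within counting error of untreated cells. Hdac10, at 3.46 CPM in the untreated library, was at 3.09, 1.73, 5.40 and 3.02 CPM in BLU, BLA, BLU-A and BLA-A. BLA was at 50.0% of untreated cells (34.4 to 71.8%) and BLU-A at 156.0% (119.0 to 205.0%), so the low and the high library were both treated ones. Hdac11 of class IV was at 4.21 CPM in the untreated library and between 2.94 and 5.14 CPM in treated cells, with BLA-A the lowest. Over the 10 members, 3 were lower in all 4 treatments (Hdac1, Hdac2 and Hdac9), 2 were higher in all 4 (Hdac4 and Hdac8) and 5 were mixed. At any size of change, 19.3% of all genes were lower and 19.4% higher in all 4 treatments. The 2 of 10 members that were higher are near the background. Hdac9, among the 3 that were lower, was picked for this direction, so nothing is read from the count of 3. The median log2 fold change of the members, Hdac9 included, was -0.16, -0.26, 0.06 and -0.07 in BLU, BLA, BLU-A and BLA-A. Over all genes tested it was -0.0062, -0.013, 0.0015 and -0.013.

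**Figure D3:**
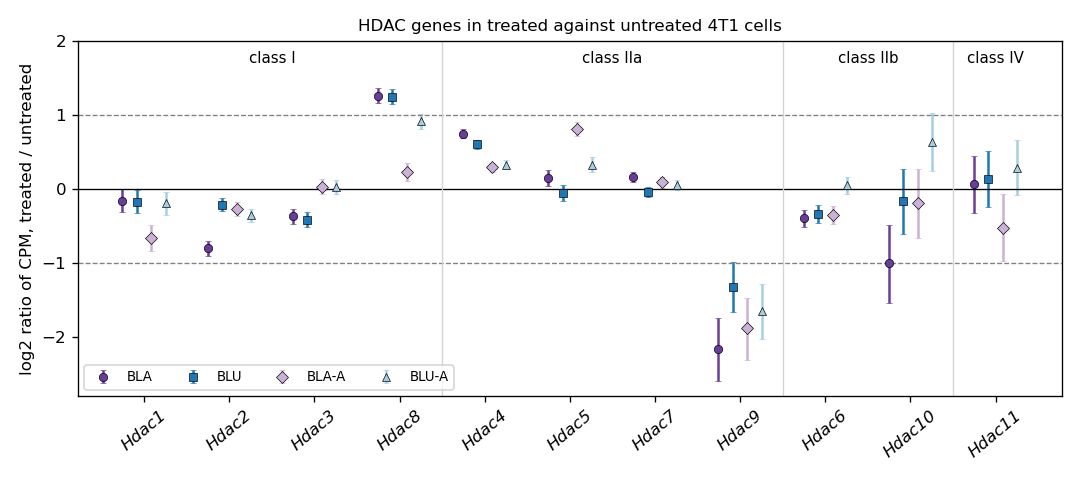
Log2 ratio of CPM in treated over untreated cells (y axis) for the 10 members and Hdac11 (x axis, by class), 1 library per treatment. Bars are 95% counting intervals and dashed lines mark 1 and -1; no 0.5 is added here, so Hdac10 in BLA, at 50.0% of untreated cells, falls on the line although its log2 fold change on CPM plus 0.5 was -0.83. Hdac9 is the only gene below -1 in all 4 treatments.

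Per kilobase of gene span, Hdac9 was the lowest of the 10 members in all 5 libraries. Its level was 0.0112 CPM per kb in untreated cells and from 0.0025 to 0.00447 CPM per kb in treated cells. Hdac3 was the highest in each library, at 2.59 to 3.53 CPM per kb. In untreated cells the order below Hdac3 was Hdac2 (2.98 CPM per kb), Hdac6 (2.61), Hdac7 (2.30), Hdac5 (1.43), Hdac1 (1.01), Hdac10 (0.621), Hdac4 (0.546), Hdac8 (0.189) and Hdac9. Per kilobase of exon, where intronic reads are not allowed for, Hdac9 was again last in all 5 libraries, at 0.618 CPM per kb in untreated cells, and Hdac4 moved up to the 4th place. In untreated cells, Hdac3, Hdac2, Hdac1 and Hdac9 held the same place by both lengths, and the other members changed places.

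By mean log2 fold change over the treatments, Hdac9 (-1.59), Hdac8 (0.91) and Hdac4 (0.49) were the 3 members farthest from untreated cells. They are also the 3 with the longest spans. Over all genes the fold change differed between length classes, without a steady trend. In BLA the class median was -0.15 under 20 kb, 0.25 at 200 to 300 kb and -0.72 over 500 kb. Of the 16347 kept genes with an annotated span (92.6%), 82 were longer than Hdac9. Among 228 genes over 500 kb, the share lower past a log2 fold change of 1 was 14.0% in BLU, 38.2% in BLA, 28.9% in BLU-A and 63.6% in BLA-A, and 7.46% were lower in all 4 treatments. Among 6608 genes under 20 kb, these shares were 3.33% in BLU, 6.63% in BLA, 1.83% in BLU-A and 7.35% in BLA-A, with 0.333% lower in all 4. Higher past the threshold were 7.02%, 11.0%, 3.07% and 1.32% of the genes over 500 kb in BLU, BLA, BLU-A and BLA-A. Under 20 kb the higher shares were 5.95%, 8.2%, 3.8% and 13.3% in the same order. The median log2 fold change of the genes over 500 kb was -0.32, -0.72, -0.50 and -1.89 in BLU, BLA, BLU-A and BLA-A, where Hdac9 was at -1.22, -1.93, -1.50 and -1.70. Hdac9 was therefore below the median of its length class in BLA, BLU and BLU-A, and slightly above it in BLA-A. For the 454 genes of 200 to 300 kb, which include Hdac4 and Hdac8, the medians were 0.35, 0.25, 0.13 and -0.20 in the same order. Hdac4 and Hdac8 lay above these medians in each treatment. The part of gene length in these values was not tested.

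**Figure D4:**
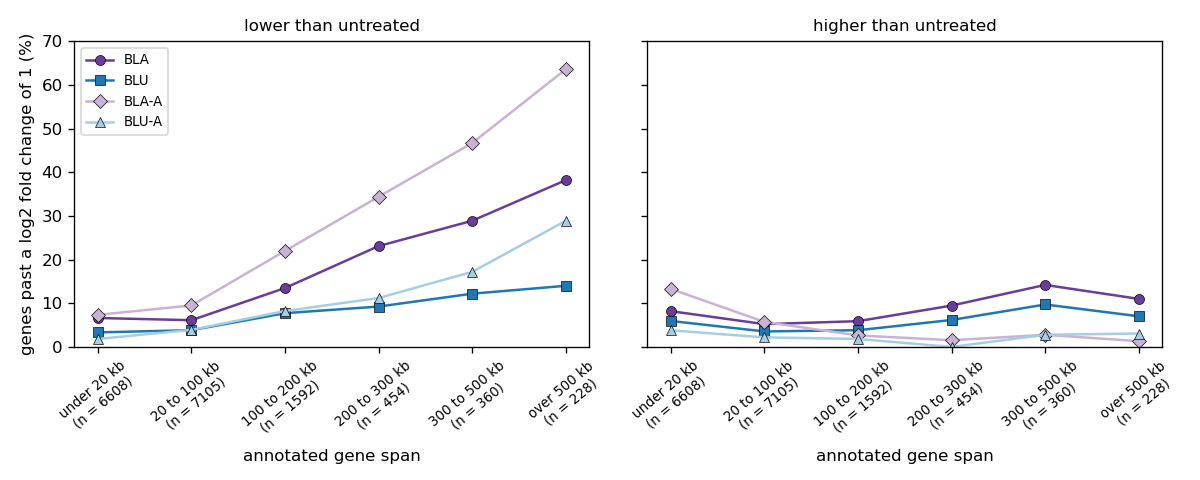
Percentage of genes (y axis) lower (left) or higher (right) than untreated cells past a log2 fold change of 1, by annotated gene span (x axis, with the number of genes), one line per treatment. The share of lower genes is highest over 500 kb, the class of Hdac9, and reaches 63.6% in BLA-A.

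The overlap of other genes with Hdac9 was small. GENCODE places 8 genes over the Hdac9 span, of which 2 were in the count table. The lncRNA Gm40875, on the other strand, had 1 count in untreated cells and none in treated cells, and the small nucleolar RNA Gm24429 had none. RefSeq adds Gm40384, with 3 counts in BLA-A and none elsewhere, and Gm51984, with none. For Hdac8, GENCODE gives Gm14858 on the other strand, with at most 6 counts in a library. Hdac7 is overlapped by Slc48a1, a heme transporter gene on the other strand with 1018 to 1861 counts, over 0.0617% of its span in RefSeq, on whose genes the reads were counted, and over 5.82% in GENCODE. The lncRNA Gm33636, also on the other strand, covers 21.9% of Hdac7 in RefSeq and 2.52% in GENCODE, and had 199 counts in BLA-A and at most 13 elsewhere. In GENCODE alone, Hdac5 is overlapped over 10.1% of its span by G6pc3, a glucose-6-phosphatase gene on the other strand with 219 to 452 counts. Mir8101, inside Hdac5, had no counts. The genes that overlap Hdac4 and Hdac10 were not analysed here. No overlapping gene was found for Hdac1, Hdac2, Hdac3 or Hdac6 in either annotation.

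Of 9 protein-coding genes within 1 Mb of Hdac9, 6 passed the filter. Of these, 2 (Twist1 and Cdhr3) were lower in all 4 treatments, where 19.3% of all genes were. Past the threshold, Twist1 was lower in BLA-A only, and Cdhr3 in BLU and BLA-A. Over all genes, 4.64% were lower past it in BLU and 12.4% in BLA-A. Twist1, a transcription factor of epithelial to mesenchymal transition, lies 87.8 kb from Hdac9. It was at 50.6 CPM in the untreated library and at 41.9, 36.7, 44.1 and 25 CPM in BLU, BLA, BLU-A and BLA-A, with log2 fold changes of -0.27, -0.46, -0.20 and -1.003 in the same order. Cdhr3, at 1.35 CPM in the untreated library, was at 0.327 CPM in BLU, 1.18 in BLA, 0.454 in BLU-A and 0 in BLA-A. Snx13, a sorting nexin gene 130 kb from the other end, was higher in all 4, at 67.0 CPM in the untreated library and 84.6 to 106.0 CPM in treated cells. Atxn7l1 was at 196.0 CPM in the untreated library and at 204.0 to 323.0 CPM in treated cells. Ahr, the aryl hydrocarbon receptor, kept between 49.5 and 69.1 CPM, and Polr1f between 20.4 and 34.7 CPM. Efcab10, Prps1l1 and Ferd3l stayed under the filter.

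By distance between profiles (log2 of CPM plus 0.5, centred per gene, over the 5 libraries and 17647 genes), the 5 genes nearest to Hdac9 were Klf15, Gm53343, Lrrc3b, 1700029J03Rik and Sgce, at distances of 0.169, 0.201, 0.210, 0.228 and 0.231. All 5 were low. Klf15, a Krüppel-like transcription factor gene, was at 1.20 CPM in the untreated library, 0.254 in BLU, 0.113 in BLU-A and 0 in BLA and BLA-A. Gm53343 was at 1.62 CPM in the untreated library and 0.0735 to 0.363 CPM in treated cells. Lrrc3b, 1700029J03Rik and Sgce were at 1.13 to 1.32 CPM in the untreated library and at most 0.291 CPM in treated cells. Each passed the filter only through the untreated library, so they had to be lower in the others.

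Genes that work with the deacetylases were followed as lists. Of 34 subunits of the corepressor complexes that carry class I enzymes, all passed the filter and 2 passed the threshold, each in 1 treatment. Over all genes, 8.55% were lower past it in BLA and 8.54% higher in BLA-A, so no excess is read from these 2. Gps2, a subunit of the NCoR and SMRT complexes, was at 265.0 CPM in the untreated library and at 197.0, 127.0, 220.0 and 412.0 CPM in BLU, BLA, BLU-A and BLA-A, so that only BLA was lower past the threshold. Rcor2, a CoREST family gene, was at 6.20 CPM in the untreated library, 6.29 in BLU, 3.09 in BLA, 6.92 in BLU-A and 17.9 in BLA-A, with BLA-A the high library. The list median was -0.04 in BLU, -0.05 in BLA, -0.01 in BLU-A and 0.13 in BLA-A.

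Of 27 partners and kinases of class IIa proteins, 25 passed the filter, and 4 of these passed the threshold. Over all genes, 12.4% were lower past it in BLA-A, 8.54% higher in BLA-A and 7.93% higher in BLA, so no excess is read from these 4. Camk1d, a calcium/calmodulin-dependent kinase gene, was at 266.0 CPM in the untreated library, 330.0 in BLU, 374.0 in BLA, 241.0 in BLU-A and 101.0 in BLA-A. Prkd1, the gene of protein kinase D1, was low throughout, at 1.88 CPM in the untreated library, 2.69 in BLU, 1.84 in BLA, 0.756 in BLU-A and 0.432 in BLA-A. Both were lower past the threshold in BLA-A only. Sik1, a salt-inducible kinase gene, was higher past it in BLA-A only, at 125 against 61.8 CPM in the untreated library. Camk1g was higher past it in BLA only, at 9.23 against 4.02 CPM. The list median was 0.16, 0.27, 0.02 and 0.32 in BLU, BLA, BLU-A and BLA-A.

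Of the 7 sirtuins, the NAD-dependent deacylases, 1 passed the threshold, higher in BLU-A, where 3.35% of all genes were. Sirt5, a mitochondrial desuccinylase, was at 6.01 CPM in the untreated library, 9.49 in BLU, 11.5 in BLA, 152.0 in BLU-A and 5.23 in BLA-A. The 3 BLU-A columns held 3975, 4016 and 4045 counts and the 3 untreated columns 153, 166 and 162, so 1 library alone carried this value. The sirtuin median was 0.24 in BLU, 0.10 in BLA, 0.07 in BLU-A and 0.08 in BLA-A. Of the 10 lysine acetyltransferases, which add the acetyl groups, Kat8 alone passed the threshold, lower in BLA, where 8.55% of all genes were. Kat8 was at 10.2 CPM in BLA against 21.0 in untreated cells, with 22.2 CPM in BLU, 19.0 in BLU-A and 14.2 in BLA-A. The median of the acetyltransferases was 0.06 in BLU, 0.0020 in BLA, 0.02 in BLU-A and 0.17 in BLA-A. None of the 6 bromodomain readers, which bind acetylated lysines, passed the threshold, where 3.35 to 12.4% of all genes did per treatment and direction. Their median was -0.10 in BLU, -0.16 in BLA, -0.08 in BLU-A and -0.34 in BLA-A. All of these lists were chosen with results of the same libraries known.

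The cells carried epithelial carcinoma markers, with Krt18 at 452.0 to 690.0 CPM, Krt8 at 176.0 to 435.0 CPM, Cdh1 at 124.0 to 233.0 CPM and Epcam at 39.8 to 69.0 CPM. The basal keratin Krt5 was at 0 counts in all 5 libraries and Krt14 at most at 0.821 CPM. Of the hormone receptors, Esr1 was at 21.1 to 35.3 CPM, introns included, and Pgr at 0.216 to 1.32 CPM. Of the 3 immune markers reported, Cd3e was at 0 to 4 counts. Ptprc and Adgre1 were low and, like Hdac9, lower in every treated library than in untreated cells. Ptprc was at 1.5 CPM in the untreated library and at 1.13, 0.184, 0.378 and 0.302 CPM in BLU, BLA, BLU-A and BLA-A. Adgre1 was at 2.14 CPM in the untreated library, 0.582 in BLU, 0.699 in BLA, 0.605 in BLU-A and 0.216 in BLA-A. Adgre1 passed the filter only through the untreated library, so it had to be lower in the others. Among treated libraries it was highest in BLA, where Hdac9 was lowest. The summed level of these 3 immune markers was 3.72 CPM in the untreated library and 0.562 to 1.82 CPM in treated cells, and its part in the Hdac9 values was not tested. Fibroblast markers summed to 87.3 to 104.0 CPM, nearly all from Pdgfra, and endothelial markers to 1.77 to 4.07 CPM, with Kdr between 0 and 1.34 CPM. In a bulk culture, fewer cells of a type and less RNA per cell cannot be told apart.

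The treated libraries also allow contrasts that the choice of members did not use. The nanoparticle libraries (BLA-A and BLU-A) were compared with the extract libraries (BLA and BLU), 2 against 2, by the edgeR quasi-likelihood test over all 17647 genes with Benjamini-Hochberg adjustment. For Hdac9 the log2 difference, nanoparticles minus extracts, was -0.02 with a standard error of 0.57 and a 95% interval of -1.39 to 1.34 (adjusted p = 0.994). No member passed an adjusted p of 0.05, and 0 of all genes did (0%). At an unadjusted p under 0.05 there were 1108 genes and no member, and DESeq2 called 34 genes and no member. The smallest unadjusted p among members was 0.063, for Hdac8, at -0.59 (-1.23 to 0.04, adjusted p = 0.682). Hdac5 was at 0.60 (-0.06 to 1.26) and Hdac3 at 0.48 (-0.05 to 1.02), both with an adjusted p of 0.682. The Hdac10 interval, -0.54 to 2.25, was the widest, which bounds what 2 libraries a side could show for a gene with 47 to 143 counts.

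Between berries (BLA and BLA-A minus BLU and BLU-A), Hdac9 was at -0.48 with a standard error of 0.54 (-1.78 to 0.82, adjusted p = 0.924, edgeR quasi-likelihood test). It was lower in both blackberry libraries than in both blueberry libraries, by ratios that exceeded counting error except for BLA-A against BLU-A (0.851, 0.600 to 1.20). No member and 0 of all genes (0%) passed the adjusted p of 0.05, with 631 genes and no member at an unadjusted p under 0.05, and 13 genes and no member by DESeq2. The smallest adjusted p among the members was 0.914, for Hdac5 at 0.44 (-0.37 to 1.24) and Hdac10 at -0.77 (-2.23 to 0.68). Hdac8 was at -0.21 (-1.06 to 0.64). These intervals do not show that the berries act alike.

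Leaving out 1 library puts a lone library on a side, and the fit then assumes that it varies like the others. Only differences are therefore given here, and no call is read from these fits. Without BLU-A, nanoparticles minus extracts was -0.92 for Hdac8 and 0.86 for Hdac5. Without BLA, blackberry minus blueberry was -0.74 for Hdac8 and 0.77 for Hdac5. In both fits BLA-A, where Hdac5 is highest and Hdac8 lowest among treated libraries, stood alone on its side. Hdac9 was at -0.09 without BLU-A and at -0.29 without BLA in the same contrasts.

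**Figure D5:**
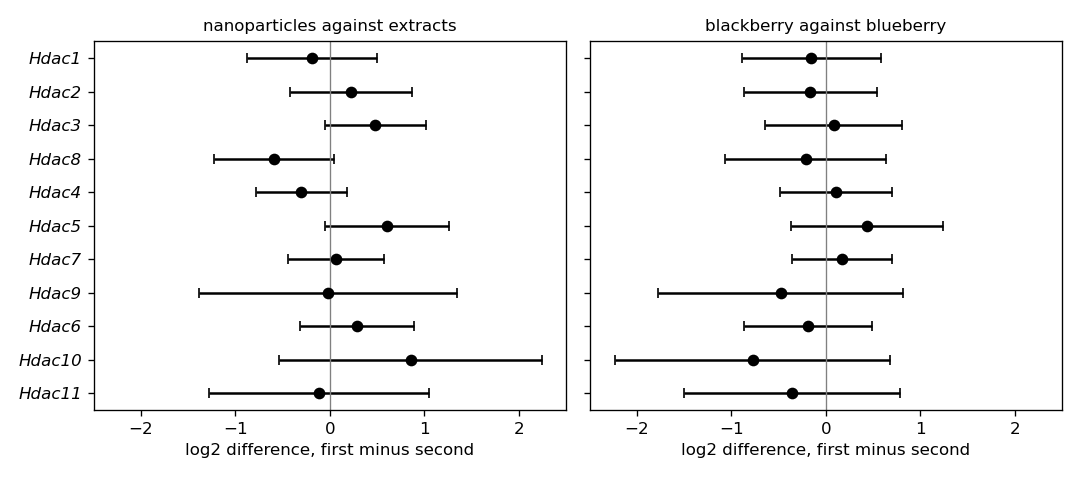
Log2 difference (x axis) with its 95% interval for the 10 members and Hdac11 (y axis) in both tested contrasts of 2 libraries against 2, as nanoparticles minus extracts (left) and blackberry minus blueberry (right). Every interval includes 0, and Hdac9 lies at -0.02 and -0.48.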

How the data were processed

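Bulk RNA-seq of 4T1 cells was examined from the count table that the authors deposited. Its values are read counts per gene without normalization. Per the study's sequencing report and the labels, the authors removed ribosomal RNA, aligned merged reads to GRCm39 with STAR and counted them by strand in OmicsBox on RefSeq features of type gene, introns included, with the overlap mode union. The labels also name DESeq2 1.36.0. Deposited tables of the authors' own comparison and gene set enrichment were not used.

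The 3 columns of a condition were averaged and rounded to 1 library because, over genes averaging 10 or more counts, the chi-square of each condition stayed below 1.5 per degree of freedom. Replicate numbers did not pair the columns (mean correlation -0.000177 over 30 pairs). A gene was kept if any library reached 1 CPM, TMM factors were computed on them in edgeR 4.0.16 (R 4.3.3), and fold changes were computed as log2 of CPM with 0.5 added and called over 1 in size. Intervals of single libraries are exact or Wilson at 95%. A floor of 3 counts corresponds to 0.109 to 0.13 CPM. Contrasts among treated libraries were tested by quasi-likelihood F in edgeR and adjusted by Benjamini-Hochberg at 0.05, with DESeq2 1.42.0 as an alternative. Where only 1 library stands for a condition, p-values measure the spread between the libraries pooled on a side.

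Positions and overlaps came from GENCODE release M39 on GRCm39, further overlaps and promoters from RefSeq (GRCm38.p6). Promoter windows were placed on GRCm39 by exact match, and 7 of the 10 members had one. A marker gene of the lists is not reported here. The members and lists were chosen with earlier results of these data known. Named genes are the members and Hdac11, list genes past the threshold (at most 3 a direction), genes overlapping a member, protein-coding genes within 1 Mb of Hdac9 and the 5 nearest profiles to Hdac9. Alternatives covered the scaling, filter, pseudocount, threshold, test, blocks and left-out libraries or columns. Python 3.11.15, numpy 2.4.6, pandas 2.3.3 and scipy 1.17.1 were used.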

Additional observations from a re-analysis of the deposited data

Results flagged for a closer look

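Hdac3 is listed because its values had one sign under both extracts and the other under both nanoparticles. Its log2 fold change against untreated cells was -0.41 in BLU and -0.365 in BLA, against 0.03 in BLU-A and 0.035 in BLA-A. The nanoparticle values lay within counting error of untreated cells. The test of the difference between formulations gave 0.48 with a 95% interval of -0.05 to 1.02 and an adjusted p of 0.682 (edgeR quasi-likelihood test). With scaling by total counts the value in BLA-A was -0.16, so the signs were then no longer opposite.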

How the results depend on the processing

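Hdac9 stayed below untreated cells in all 32 values from other settings, which ranged from -0.99 to -2.11. Hdac9 was picked for this direction. The settings that leave out a column only drop a read subset of the same library, so the kept sign is no further support. The Hdac9 value in BLA went to -1.488 with a pseudocount of 2, and that in BLU to -0.99, which left 1 member past the threshold in BLU. Of 320 such values over the 10 members, 2 changed sign, Hdac3 and Hdac7 in BLA-A with scaling by total counts, which shifted the median of all genes in BLA-A by -0.17. With a threshold of 0.5, 3 members passed in BLU (32.9% of all genes), 5 in BLA (42.6%), 3 in BLU-A (24.9%) and 3 in BLA-A (49.5%). TMM over all genes, an alternative chosen after seeing the data, left every count of members past the threshold as it was.

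The formulation contrast called 0 genes, but 697 without a filter, 5 with berry as a block and 34 by DESeq2. Leaving out 1 library gave 1 to 4107 calls (the latter without BLU-A, 59 without BLA-A, 4 without BLA, 1 without BLU). The berry contrast called 0, but 353 without a filter, 7 with formulation as a block and 13 by DESeq2, and 10 to 4860 with a library left out (4860 without BLA, 305 without BLA-A, 24 without BLU, 10 without BLU-A). The cause was not tested. Entering the 12 treated columns as samples gave 7812 and 5848 calls, and with the replicate block 6083 and 3987. Those columns are subsets of 4 libraries, so their spread is not that of separate cultures. In these fits Hdac9 had an adjusted p of 0.0173 (0.0462 with the replicate block) in the berry contrast and 0.954 (0.959) in the formulation contrast (edgeR). Also called between berries (edgeR) were Hdac7, with an adjusted p of 0.00753 (0.0298 with the block), and, without the block only, Hdac10 (0.042). Called between formulations were Hdac3, Hdac4, Hdac5, Hdac6, Hdac8 and Hdac10. Their adjusted p ranged from 2.16e-05 to 0.0137 (0.000477 to 0.0331 with the block, edgeR).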
